A study of Mus musculus with 11 samples.

Results

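The 37 genes described here encode the enzymes of glycolysis and of the tricarboxylic acid cycle in the mouse hippocampus, together with a pair of glucose transporters (Slc2a3 and Slc2a4) and 3 of the bifunctional enzymes that set the activity of phosphofructokinase. They were chosen by gene symbol from known pathway membership, from a table of 46202 gene rows. The rule used no measured values, but earlier results of these data were known when the genes were chosen. All 37 had a value in every library and all 37 were among the 27721 rows tested. The mice were males of the strain labelled C3-C57B1/6J, 2 to 3 months old and single-housed, which received insulin at 2.4 IU per nare or saline through the nose. Hippocampi were collected under isoflurane, and stranded paired-end libraries of total RNA were sequenced. Saline controls (n = 3) carry the time label 0 min and a treatment label of untreated, although their titles call them saline-treated. Insulin libraries were collected after 15 min (n = 2, replicates 1 and 3; replicate 2 was not analysed here), 1 h (n = 3) and 6 h (n = 3). Every insulin time was thus compared with controls collected at another time, and effects of collection time and of insulin cannot be told apart. The labels do not say whether a library holds a single animal, so the tests rest on variation between libraries, which may be technical. Numbers ending the column names run group by group, so an effect of processing order cannot be told apart from insulin either. Values below are given in replicate order for each group, and 15 min, 1 h and 6 h stand for the insulin libraries.

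Glycolysis splits glucose into pyruvate in the cytosol, and the tricarboxylic acid cycle oxidizes the acetyl units made from pyruvate or fatty acids in the mitochondrial matrix. In the hippocampus neurons and astrocytes share these pathways but use different isozymes at several steps. Neurons carry their own glucose transporter and their own enolase, whereas aldolase C is typical of astrocytes. The study's title names a switch of astrocytes to fatty acids under insulin. The genes below code for the route that uses glucose and for the cycle that both fuels feed.

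Of the 37 genes, Eno1 alone passed the test across all rows, as a fall, and the call is narrow. At 1 h it was lost in 10 of 11 fits that left out 1 library, and under cyclic loess and median centring. Eno1 encodes the widely expressed enolase of glycolysis. Its log2 signal was 0.29 lower at 1 h of insulin than with saline (standard error 0.05, adjusted p = 0.0368 in limma), which is 1.22-fold lower if the deposited values are log2, a base that the labels do not state. At 15 min 0 of the 37 genes passed the adjusted threshold of 0.05, where 0.239% of all rows passed. At 1 h 1 gene passed, as a fall, where 0.877% of all rows passed in either direction and 0.747% passed as falls. At 6 h 0 genes passed, and 0.0% of all rows did. With the 3 insulin times averaged 1 gene passed, again Eno1 as a fall, beside 0.452% of all rows in either direction, 0.362% as falls and 0.0905% as rises. A moderated F test over the 3 times passed 0 of the 37 genes, against 0.365% of all rows. At an unadjusted p under 0.05, limma gave 6 genes at 15 min, 7 at 1 h, 3 at 6 h, 9 over all insulin libraries and 4 in the F test. The shares of all rows at that level were 15.1%, 15.7%, 6.98%, 14.8% and 14.4%.

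Most of the 37 changes were negative on the deposited scale, as were most changes over all rows. At 15 min 34 of the 37 log2 changes lay below 0, where 68.7% of all rows did. At 1 h 29 of 37 lay below 0, with 66.8% of all rows, and at 6 h 24 of 37, with 57.0% of all rows. Over all insulin libraries 31 of 37 lay below 0, with 68.4% of all rows. At 15 min the median log2 change was -0.11 for the 37 genes and -0.14 for all rows; at 1 h these medians were -0.10 and -0.11, and at 6 h they were -0.05 and -0.04. On the deposited scale the 37 genes thus shifted by about as much as the table did. Centring each library on its median over the rows with a value in all 11 libraries moved the median change of all rows to 0.04 at 15 min and 0.03 at 1 h. After that step 8 of the 37 changes lay below 0 at 15 min (44.8% of all rows), 13 at 1 h (44.4%) and 22 at 6 h (51.1%). Cyclic loess scaling ran the other way: the median change of all rows was 0.00 at 15 min and 1 h, and 28, 26 and 23 of the 37 lay below 0 at the 3 times, with 49.97%, 50.5% and 51.3% of all rows. Under it the median of the 37 genes less that of all rows was -0.07, -0.06 and -0.04, against 0.02, 0.00 and -0.01 on the deposited scale. With an offset of 1 on the linear scale it was -0.07, -0.05 and -0.04. That offset shrinks the changes of low rows the most, so this gap cannot show that the 37 genes fell more than the table. Under the offset the median change of all rows was -0.011, -0.008 and -0.002. For the 37 genes it was -0.078, -0.063 and -0.042. The sign of a small change among the genes below thus depends on the scaling. Values relative to the median of all rows are given for Eno1 and Cs below. At 15 min and 1 h they were -0.17 and -0.20 for Idh3g, and -0.45 and -0.33 for Suclg2. For Sdhb they were -0.11 and -0.09, for Suclg1 -0.05 and -0.07, and for Dlst -0.02 and -0.04. For Aldoa they were -0.02 and -0.06, for Idh3a 0.02 and -0.06, and for Pfkm 0.02 and 0.01. For Gapdh they were -0.13 and -0.19.

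**Figure D1:**
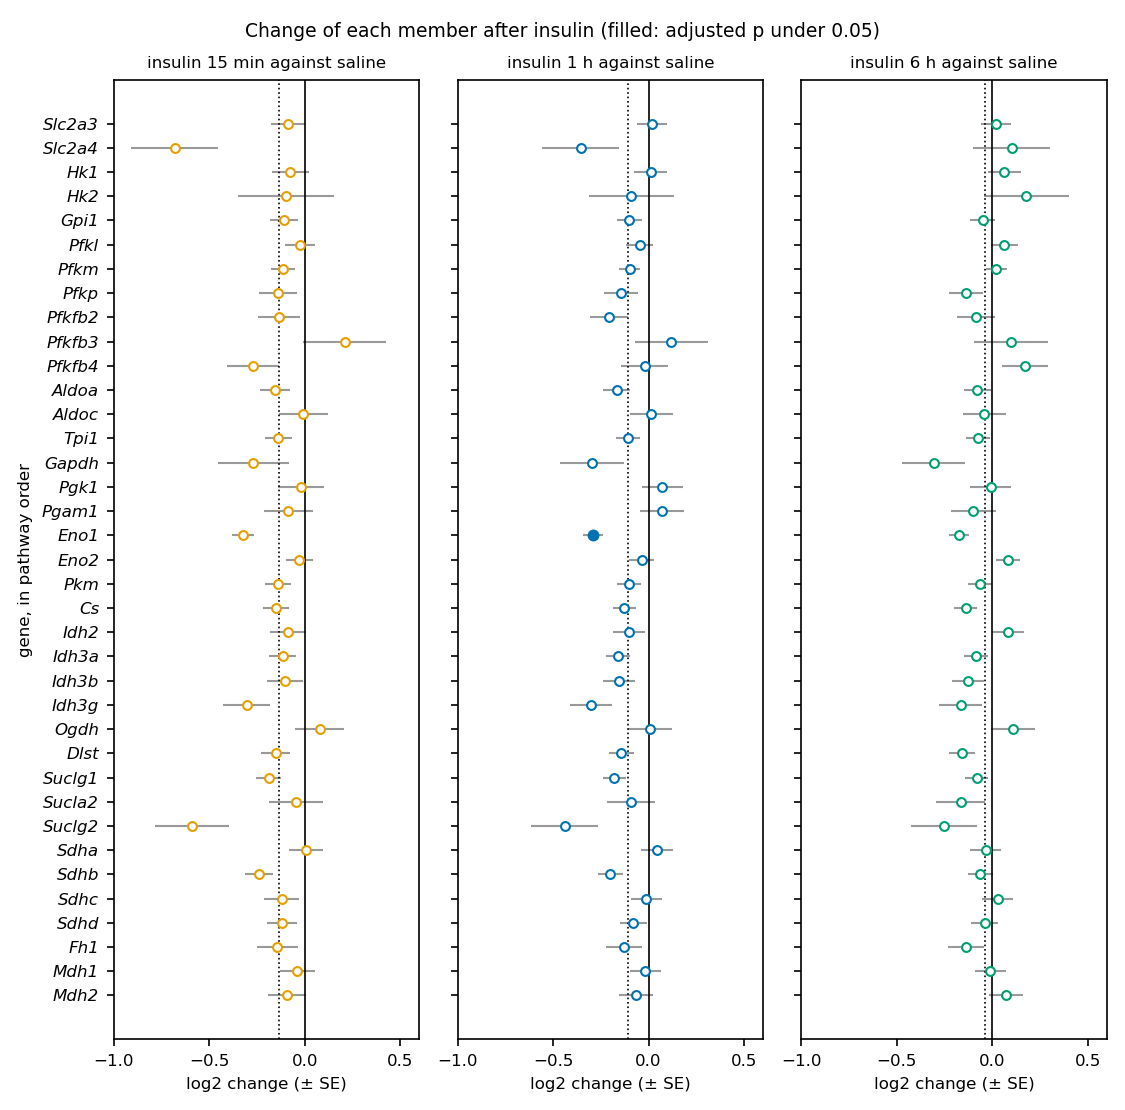
Log2 change of each of the 37 genes (x axis, log2 units, lines show ± 1 standard error) at 15 min, 1 h and 6 h of insulin against saline, in pathway order from top to bottom. The filled point is Eno1 at 1 h, the only gene and time with an adjusted p under 0.05; the dotted line is the median change of all rows, at -0.14, -0.11 and -0.04.

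Non-overlap of libraries was common among the 37 genes at the early times on the deposited scale, where most rows also fell. It was not recounted after centring or cyclic loess. At 15 min both insulin libraries lay below all 3 saline libraries in 20 genes, where 31.1% of all rows with complete values showed this, and 0 genes had both above, against 6.96% of rows. At 1 h the count below was 17, with 21.5% of rows, and 0 were above, with 6.27% of rows. At 6 h 8 genes lay wholly below, with 8.78% of rows, and 2 wholly above, with 4.31%. All 8 insulin libraries lay below every saline library in 8 genes (Aldoa, Tpi1, Eno1, Cs, Idh3a, Dlst, Suclg1 and Suclg2), against 4.21% of rows, and above in 0 genes, against 0.718%. The 37 genes varied little between replicates: the median SD with saline was 0.048 for them and 0.154 for all rows. A shift of the whole table can separate genes of small spread more easily, and its part in these counts was not tested. The median standard error of a change at 1 h was 0.084 for the 37 genes, with a range from 0.052 for Eno1 to 0.223 for Hk2, and 0.209 for all rows.

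Several properties of the libraries bear on these values. The table is quantile-normalized, so each library has the same lowest, median and highest value, but libraries held values for differing numbers of rows (32941 to 33510 under saline, 32037 to 32427 after 15 min, 32133 to 32640 after 1 h, 32703 to 33653 after 6 h). Read depth is not known from the files. The row of nuclear 18S ribosomal RNA, Rn18s-rs5, ranged over 13.05 to 16.00 under saline, 9.67 to 10.49 after 15 min, 10.18 to 10.51 after 1 h and 11.04 to 12.19 after 6 h, with no overlap between saline and any insulin time. Its part in the changes below was not tested. Replicate 2 at 6 h stood apart from its group: 15 of the 37 genes lay more than 0.2 log2 units from the mean of the other 6 h libraries, 12 of them lower and 3 higher, as did 64.9% of all rows. For replicates 1 and 3, each set against a mean that includes replicate 2, the counts were 9 and 7 genes. The shares of all rows for them were 52.6% and 49.8%. Without replicate 2 the median SD of the 37 genes at 6 h was 0.025, from only 2 libraries, and with it 0.122.

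**Figure D2:**
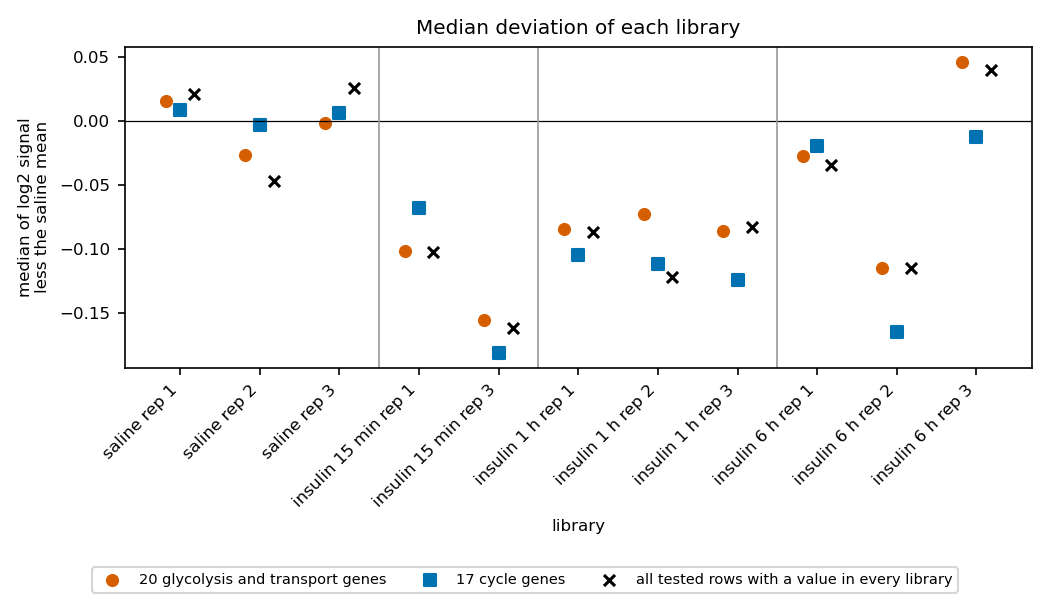
Median deviation from the saline mean (y axis, log2 units) in each of the 11 libraries for the 20 genes of glycolysis and transport, the 17 genes of the cycle and all tested rows with complete values. The gene medians lie near the median of all rows, which ran from -0.16 to -0.10 at 15 min and from -0.12 to -0.08 at 1 h, and replicate 2 at 6 h lies below replicates 1 and 3.

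Markers of the tissue and of its cell types were compared in the same libraries. All 8 pyramidal and all 6 dentate granule markers of the hippocampus were among the tested rows. So were all 7 striatal, 6 neocortical and 5 thalamic markers, so being tested does not identify the tissue. Of 102 markers in 16 lists 99 were tested, and 0 rose at any time. The summed signal of the 8 astrocyte markers overlapped between groups, at 5.40 to 5.75 under saline, 5.53 to 5.77 after 15 min, 5.47 to 5.76 after 1 h and 5.53 to 5.74 after 6 h on the log2 scale. Summed pan-neuronal markers overlapped as well, at 5.75 to 5.84 under saline, 5.65 to 5.80 after 15 min, 5.66 to 5.75 after 1 h and 5.66 to 5.75 after 6 h. The endothelial sum was 3.75 to 4.27 under saline, and 3.36 to 3.70 after 15 min and 3.53 to 3.67 after 1 h, wholly below saline; it overlapped saline after 6 h with 3.68 to 3.99. The pericyte and smooth muscle sum was 3.53 to 3.61 under saline and lay below it after 15 min (3.04 to 3.22), 1 h (3.09 to 3.44) and 6 h (3.06 to 3.40). Dentate granule markers summed to 2.95 to 3.20 under saline, overlapped this after 15 min and lay below it after 1 h (2.55 to 2.63) and 6 h (2.52 to 2.91). At 6 h the choroid plexus, ependymal and blood sums were below saline too, and at 15 min the striatal sum was above it (3.40 to 3.65, against 2.44 to 3.10 with saline). The pyramidal, interneuron, oligodendrocyte, oligodendrocyte precursor, neocortical and thalamic sums overlapped saline at every time. In the thalamic list Rora, which encodes a nuclear receptor, fell at 1 h (log2 change -0.60, adjusted p = 0.0324). Of the markers, P2ry12, Kcnj13 and Alas2 were too low to be tested. The part of these lists in the values below was not tested. In whole tissue, fewer cells of a type and less RNA per cell cannot be told apart.

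Glucose enters through the transporters. Slc2a3, the glucose transporter of neurons, had log2 signals of 0.09, 0.07 and 0.04 with saline, -0.04 and -0.01 at 15 min, 0.13, 0.03 and 0.09 at 1 h and 0.07, -0.03 and 0.21 at 6 h. The 15 min libraries lay just below saline and the later ones overlapped it, and the log2 changes were -0.09, 0.02 and 0.02 (adjusted p = 0.661, 0.939 and 0.957). Slc2a4, the transporter that insulin brings to the surface of muscle and fat cells, was measured at -2.81, -2.44 and -2.40 with saline, -2.85 and -3.62 at 15 min, -2.85, -2.87 and -3.01 at 1 h and -2.43, -2.55 and -2.38 at 6 h. All 5 libraries of 15 min and 1 h lay below every saline library, but by little for most of them, since saline replicate 1 was itself low. The log2 change was -0.68 at 15 min (standard error 0.23, adjusted p = 0.214), -0.36 at 1 h (0.20, adjusted p = 0.435) and 0.10 at 6 h (0.20, adjusted p = 0.9). The value at 15 min rests on replicate 3, which was 0.78 below replicate 1.

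The steps from hexokinase to fructose bisphosphate showed 0 genes past the threshold at any time. Hk1, the main hexokinase of the brain, had log2 signals of 0.24, 0.12 and 0.15 with saline, 0.07 and 0.12 at 15 min, 0.23, 0.15 and 0.16 at 1 h and 0.07, 0.37 and 0.27 at 6 h. These overlap at each time, and the log2 changes were -0.07, 0.01 and 0.06. Hk2, the hexokinase that insulin induces in muscle and fat, read -3.86, -4.32 and -3.98 with saline, -4.39 and -3.91 at 15 min, -4.04, -4.38 and -4.02 at 1 h and -4.07, -3.94 and -3.62 at 6 h. The groups overlap throughout, and with a standard error of 0.22 to 0.25 Hk2 was the least precise of the 37 genes.

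Phosphofructokinase, the committed step of glycolysis, is built from subunits named for muscle, platelet and liver. Pfkm, the muscle type, had 1.87, 1.88 and 1.81 with saline, 1.78 and 1.70 at 15 min, 1.76, 1.77 and 1.74 at 1 h and 1.85, 1.89 and 1.88 at 6 h on the log2 scale. Its 5 early insulin libraries lay below saline and the 6 h libraries overlapped saline, with changes of -0.11, -0.10 and 0.02 (adjusted p = 0.414, 0.434 and 0.93). Pfkp, the platelet type, had 1.42, 1.26 and 1.37 with saline, 1.25 and 1.17 at 15 min, 1.14, 1.28 and 1.20 at 1 h and 1.31, 1.03 and 1.30 at 6 h. Its 15 min libraries lay narrowly below saline and the later ones overlapped it, with changes of -0.14, -0.15 and -0.14, none past the threshold. Pfkl and Gpi1, the glucose phosphate isomerase, had log2 changes of -0.03 and -0.11 at 15 min, -0.05 and -0.10 at 1 h and 0.06 and -0.05 at 6 h, none of them called.

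The Pfkfb enzymes make and break the sugar bisphosphate that activates phosphofructokinase. Pfkfb3, the form with the strongest kinase activity, read -2.07, -2.21 and -1.88 with saline, -2.02 and -1.67 at 15 min, -2.15, -1.78 and -1.87 at 1 h and -2.34, -1.63 and -1.91 at 6 h. Its libraries overlapped saline at every time, and the log2 changes were 0.21, 0.12 and 0.10 (standard errors 0.22, 0.19 and 0.19). Pfkfb4 gave changes of -0.27, -0.02 and 0.17, and Pfkfb2 gave -0.13, -0.21 and -0.09, with adjusted p from 0.358 to 0.955 over both genes and the 3 times.

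Of the 9 genes of lower glycolysis, Eno1 alone was called. At 15 min 9 of the 9 changes lay below 0, at 1 h 6 and at 6 h 8, with medians of -0.14, -0.10 and -0.07 beside -0.14, -0.11 and -0.04 for all rows. The aldolases open this stage. Aldoa, the aldolase of most cells, had log2 signals of 5.15, 5.12 and 5.15 with saline, 4.99 and 4.99 at 15 min, 5.06, 4.87 and 5.00 at 1 h and 5.12, 4.99 and 5.08 at 6 h. Each of the 8 insulin libraries was below saline, 6 h replicate 1 only narrowly; the changes were -0.16, -0.17 and -0.08 (adjusted p = 0.387, 0.285 and 0.781). Aldoc, the aldolase of astrocytes, read 6.72, 6.75 and 6.70 with saline, 6.75 and 6.69 at 15 min, 6.72, 6.93 and 6.57 at 1 h and 6.81, 6.49 and 6.75 at 6 h. Its groups overlapped at every time, with changes of -0.01, 0.01 and -0.04. Aldoart1, a retrogene copy of Aldoa, gave changes of -0.32, -0.33 and -0.11 (adjusted p = 0.139, 0.0642 and 0.736), and the counting could split reads between such copies, so the Aldoa values are uncertain to that extent.

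Gapdh, which oxidizes the triose phosphates and often serves as a reference gene, varied more between the 6 h libraries than any other of the 37 genes (SD 0.40). It read 4.24, 4.25 and 4.11 with saline, 4.02 and 3.84 at 15 min, 4.03, 3.89 and 3.80 at 1 h and 4.14, 3.43 and 4.11 at 6 h. The 5 early insulin libraries lay below every saline library, and at 6 h replicate 2 alone was far below. The log2 changes were -0.27 (standard error 0.19), -0.30 (0.17) and -0.31 (0.17), with adjusted p = 0.52, 0.43 and 0.721. Without replicate 2 the change at 6 h was -0.08. Tpi1, the triose phosphate isomerase, had log2 changes of -0.14, -0.11 and -0.07, close to the medians of all rows, and Pkm, the pyruvate kinase, was close to them too. Pkm had 4.42, 4.35 and 4.40 with saline, 4.30 and 4.20 at 15 min, 4.28, 4.32 and 4.26 at 1 h and 4.36, 4.26 and 4.36 at 6 h, with changes of -0.14, -0.10 and -0.06. Pgk1 and Pgam1 differed by 0.10 or less from saline at every time, with adjusted p from 0.794 to 0.986.

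**Figure D3:**
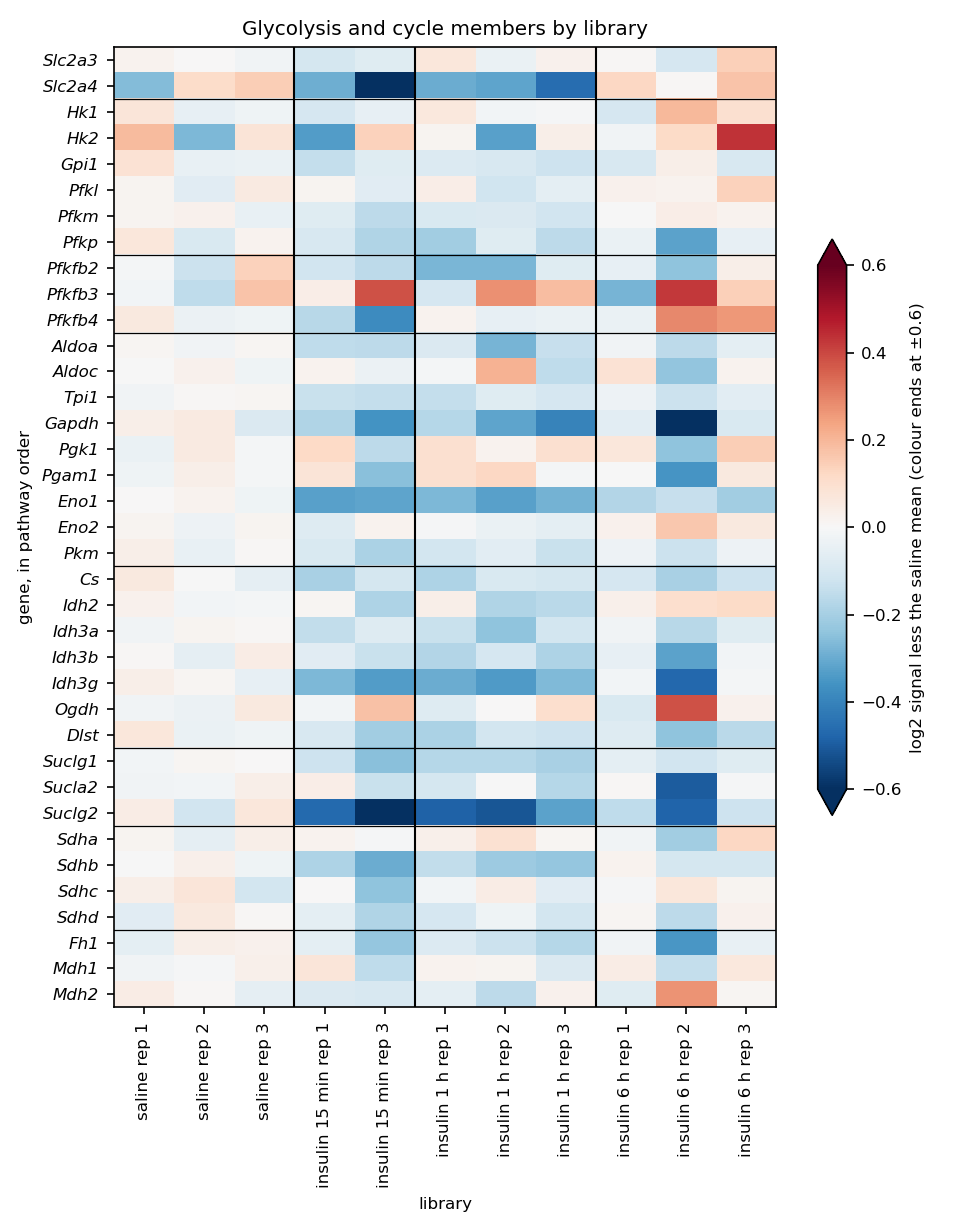
Log2 signal less the saline mean (colour, log2 units, ending at ± 0.6) for the 37 genes in pathway order (rows) and the 11 libraries (columns). Eno1, Idh3g and Suclg2 are blue, and so lower than the saline mean, in every library of 15 min and 1 h, and replicate 2 at 6 h differs from replicates 1 and 3 in many genes, Gapdh at -0.77 among them.

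Enolase, which makes phosphoenolpyruvate, is the step of the gene that was called. Eno1 (chr4:150236708-150248879, plus strand) encodes the widely expressed form. Eno2 (chr6:124760053-124769673, minus strand) encodes the neuronal form. The 250 bases before their most upstream annotated starts are shown because Eno1 was called and Eno2 was not, and their difference within a library separates the groups; the sequences are from RefSeq on GRCm38.p6, at chr4:150236458-150236707 and chr6:124769674-124769923, read 5′ to 3′ on each gene's own strand. Capitals mark the letters GCGTG, a core of the sites bound by the hypoxia factor, found on either strand.
Eno1: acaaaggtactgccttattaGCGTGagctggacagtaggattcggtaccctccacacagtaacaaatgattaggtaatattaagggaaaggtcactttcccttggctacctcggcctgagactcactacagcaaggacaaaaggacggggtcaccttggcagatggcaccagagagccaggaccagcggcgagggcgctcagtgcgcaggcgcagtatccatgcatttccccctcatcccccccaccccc
Eno2: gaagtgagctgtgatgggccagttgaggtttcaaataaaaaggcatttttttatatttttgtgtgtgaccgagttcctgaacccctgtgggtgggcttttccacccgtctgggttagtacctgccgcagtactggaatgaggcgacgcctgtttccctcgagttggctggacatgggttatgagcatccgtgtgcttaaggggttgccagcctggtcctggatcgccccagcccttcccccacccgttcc
The Eno1 window holds GCGTG 1 time and neither ACGTG nor CACGTG, and the Eno2 window holds none of these motifs. A match describes letters in this window and says nothing about binding.

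Eno1 had log2 signals of 3.03, 3.05 and 3.00 with saline (3.03 ± 0.03, SD), 2.70 and 2.71 at 15 min (2.71 ± 0.01), 2.76, 2.71 and 2.75 at 1 h (2.74 ± 0.03) and 2.86, 2.89 and 2.82 at 6 h (2.86 ± 0.03). All 8 insulin libraries lay below the lowest saline library, and the 6 h libraries lay above those of 15 min and 1 h. The log2 change was -0.32 at 15 min (standard error 0.06, adjusted p = 0.0695), -0.29 at 1 h (0.05, adjusted p = 0.0368), -0.17 at 6 h (0.05, adjusted p = 0.644) and -0.26 over all insulin libraries (0.04, adjusted p = 0.037). Less the median of all rows these changes were -0.19 at 15 min, -0.19 at 1 h and -0.13 at 6 h. The call is narrow. It was lost at 1 h in 10 of 11 fits that left out 1 library, where the change kept between -0.31 and -0.28 and the adjusted p ran from 0.0168 to 0.154. With each library centred on its median the change at 1 h was -0.15 (adjusted p = 0.373). Eno1b, a near copy of Eno1 on chromosome 18, differed from saline by 0.03, 0.07 and -0.07 log2 units (adjusted p = 0.928, 0.826 and 0.878); reads shared between such copies could be split by the counting.

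Eno2 gave 5.12, 5.07 and 5.12 with saline, 5.02 and 5.12 at 15 min, 5.09, 5.06 and 5.04 at 1 h and 5.12, 5.26 and 5.16 at 6 h. These values overlapped saline at 15 min and 1 h and lay above it at 6 h, replicate 1 only narrowly, with changes of -0.03, -0.04 and 0.08 (adjusted p = 0.888, 0.836 and 0.761). The difference of Eno2 less Eno1 within a library is not moved by any constant added to that library. It was 2.08, 2.02 and 2.11 with saline, 2.32 and 2.41 at 15 min, 2.33, 2.36 and 2.29 at 1 h and 2.27, 2.37 and 2.34 at 6 h. All 8 insulin libraries lay above all 3 saline libraries on this measure, by 0.29 in the mean at 15 min, 0.26 at 1 h and 0.26 at 6 h. This is a description, with no test. Eno2 changed little at 15 min and 1 h, so there the difference largely restates the values of Eno1. Shifts between libraries that depend on the signal level are not removed by it.

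**Figure D4:**
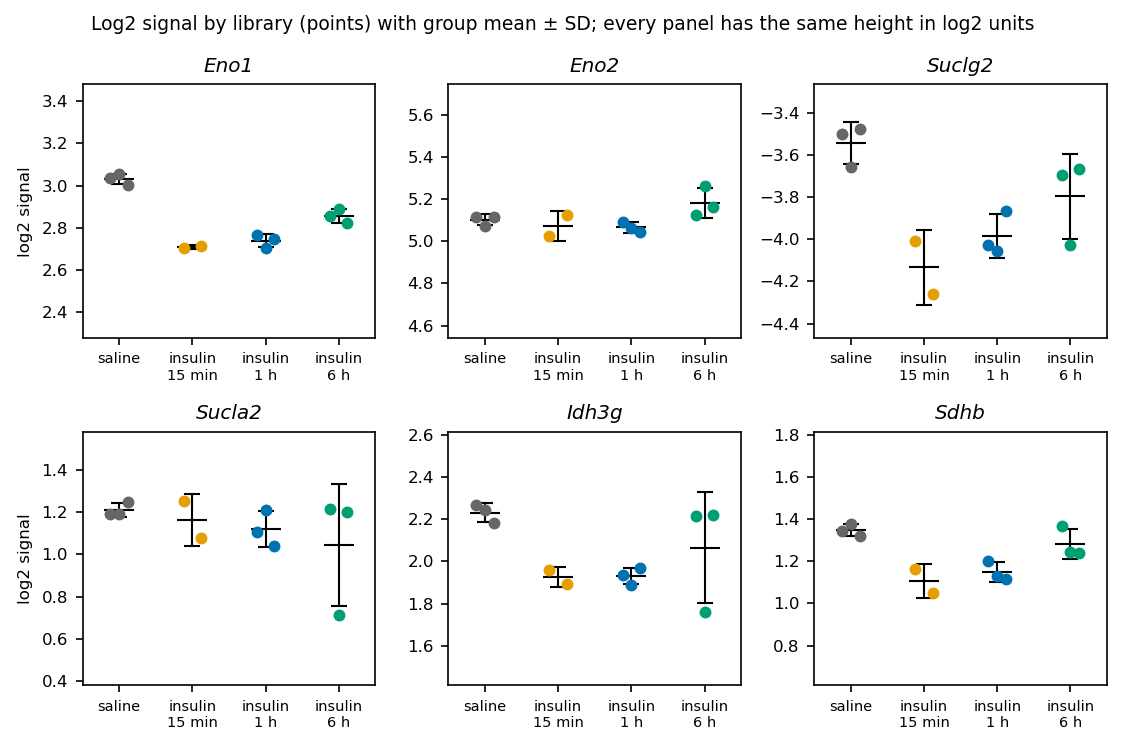
Log2 signal of 6 genes (y axis, all panels of the same height in log2 units) by group, with each library as a point and the mean ± SD as a line and bar. Eno1 is lower in all 8 insulin libraries than with saline, while Eno2 overlaps saline at 15 min and 1 h; Suclg2, Idh3g and Sdhb are lower at 15 min and 1 h, and replicate 2 at 6 h is the lowest library of Idh3g and Sucla2.

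Of the 17 genes of the cycle 0 were called at any time. At 15 min 15 of them lay below 0, at 1 h 15 and at 6 h 13, with medians of -0.12, -0.13 and -0.08. The cycle begins with citrate synthase. Cs had log2 signals of 2.54, 2.48 and 2.43 with saline, 2.29 and 2.37 at 15 min, 2.29, 2.39 and 2.38 at 1 h and 2.38, 2.28 and 2.36 at 6 h. All 8 insulin libraries lay below every saline library, with changes of -0.15, -0.13 and -0.14 (standard errors 0.07, 0.06 and 0.06; adjusted p = 0.34, 0.36 and 0.714). Less the median of all rows these were -0.01, -0.02 and -0.10, so at the early times Cs differed little from the table as a whole.

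Isocitrate dehydrogenase of the cycle has a catalytic subunit, Idh3a, and regulatory subunits, Idh3b and Idh3g. Idh3g gave 2.27, 2.24 and 2.18 with saline, 1.96 and 1.89 at 15 min, 1.94, 1.89 and 1.97 at 1 h and 2.21, 1.76 and 2.22 at 6 h. The 5 early insulin libraries formed a tight group below saline, and at 6 h replicates 1 and 3 were within the saline range while replicate 2 was the lowest of all 11 libraries. Its changes were -0.30 (standard error 0.12, adjusted p = 0.295), -0.30 (0.11, adjusted p = 0.23) and -0.17 (0.11, adjusted p = 0.74). The groups share 1 estimate of the spread, which takes in replicate 2 at 6 h. Without that library Idh3g passed at 1 h, with the same change of -0.30 and a standard error of 0.05 (adjusted p = 0.0239), and its change at 6 h was -0.01. Idh3a had 2.71, 2.75 and 2.74 with saline, 2.58 and 2.65 at 15 min, 2.60, 2.49 and 2.62 at 1 h and 2.71, 2.57 and 2.66 at 6 h. Its 8 insulin libraries lay below saline, with 6 h replicate 1 almost level with saline replicate 1, and changes of -0.11, -0.16 and -0.09 (adjusted p = 0.472, 0.252 and 0.748). Idh3b had log2 changes of -0.10, -0.15 and -0.13, and Idh2, the NADP-linked enzyme of mitochondria, had -0.09, -0.10 and 0.08, none called; at 6 h the Idh2 libraries all lay above saline.

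The oxoglutarate dehydrogenase complex follows. Ogdh, its decarboxylase, read 1.14, 1.12 and 1.22 with saline, 1.14 and 1.33 at 15 min, 1.09, 1.16 and 1.26 at 1 h and 1.07, 1.54 and 1.18 at 6 h. Its groups overlapped at every time, with changes of 0.08, 0.01 and 0.11. Dlst, the succinyl-transferring core of the same complex, had 1.91, 1.80 and 1.82 with saline, 1.75 and 1.64 at 15 min, 1.65, 1.73 and 1.72 at 1 h and 1.77, 1.60 and 1.68 at 6 h. All 8 insulin libraries of Dlst were below saline, with changes of -0.15, -0.14 and -0.16 (adjusted p = 0.382, 0.348 and 0.714).

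Succinyl-CoA ligase makes ATP or GTP in the cycle, depending on which beta subunit joins the shared alpha subunit. Suclg2, the GTP-forming beta subunit, had the most negative change at 1 h of the 37 genes. This gene was low, below the table median of -3.20 in every library. It read -3.50, -3.66 and -3.48 with saline, -4.01 and -4.26 at 15 min, -4.03, -4.06 and -3.87 at 1 h and -3.70, -4.03 and -3.67 at 6 h. Every insulin library was below every saline library, by a wide margin at 15 min and 1 h and narrowly in replicates 1 and 3 at 6 h. The log2 changes were -0.59 (standard error 0.19), -0.44 (0.17) and -0.25 (0.17), with adjusted p = 0.213, 0.258 and 0.741. Without replicate 2 the change at 6 h was -0.14.

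Sucla2, the ATP-forming beta subunit, had 1.19, 1.19 and 1.25 with saline, 1.25 and 1.08 at 15 min, 1.11, 1.21 and 1.04 at 1 h and 1.22, 0.71 and 1.20 at 6 h. Its groups overlapped at each time, and its change at 6 h was -0.17 with replicate 2 and 0.00 without it. Suclg1, the shared alpha subunit, had 0.87, 0.90 and 0.89 with saline, 0.76 and 0.64 at 15 min, 0.72, 0.72 and 0.69 at 1 h and 0.83, 0.77 and 0.81 at 6 h. Each insulin library of Suclg1 lay below the lowest saline library, with changes of -0.19, -0.18 and -0.08 (adjusted p = 0.241, 0.196 and 0.747).

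Succinate dehydrogenase also serves the respiratory chain. Sdha, its flavoprotein, had 2.84, 2.77 and 2.86 with saline, 2.84 and 2.82 at 15 min, 2.85, 2.91 and 2.84 at 1 h and 2.80, 2.61 and 2.95 at 6 h. The groups overlapped, with changes of 0.01, 0.04 and -0.04. Sdhb, the iron-sulfur subunit, had 1.34, 1.38 and 1.32 with saline, 1.16 and 1.05 at 15 min, 1.20, 1.13 and 1.11 at 1 h and 1.37, 1.24 and 1.24 at 6 h. Its 5 early libraries were below saline and its 6 h libraries straddled the lowest saline value. Changes of Sdhb were -0.24 (standard error 0.07, adjusted p = 0.187), -0.20 (0.07, adjusted p = 0.184) and -0.06 (0.07, adjusted p = 0.802), the second smallest p of the 37 genes at 15 min and at 1 h. The membrane anchors Sdhc and Sdhd had log2 changes of -0.12 and -0.12 at 15 min, -0.01 and -0.08 at 1 h and 0.03 and -0.04 at 6 h, none of them called.

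Fumarase and the malate dehydrogenases complete the cycle. Mdh2, the mitochondrial malate dehydrogenase, had 2.48, 2.45 and 2.39 with saline, 2.35 and 2.34 at 15 min, 2.38, 2.28 and 2.46 at 1 h and 2.37, 2.71 and 2.45 at 6 h. The changes of -0.09, -0.06 and 0.07 were not called, and only the 15 min libraries were clear of saline. Mdh1, the cytosolic enzyme of the malate shuttle, had 4.23, 4.25 and 4.28 with saline, 4.33 and 4.10 at 15 min, 4.27, 4.27 and 4.17 at 1 h and 4.30, 4.11 and 4.31 at 6 h. The groups overlapped, with changes of -0.04, -0.02 and -0.01. Fh1, the fumarase, had log2 changes of -0.14, -0.13 and -0.14, and of -0.03 at 6 h without replicate 2.

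Differences within a library were compared for 9 pairs of isozymes or subunits, as a description. Sucla2 less Suclg2 was 4.69, 4.85 and 4.72 with saline, 5.26 and 5.33 at 15 min, 5.14, 5.27 and 4.91 at 1 h and 4.92, 4.74 and 4.87 at 6 h. The 5 early libraries lay above saline and those of 6 h overlapped it. Sucla2 changed by only -0.05 at 15 min and -0.09 at 1 h, so there the difference largely restates Suclg2. Shifts between libraries that depend on the signal level are not removed here either. Aldoc less Aldoa was clear of saline at 15 min alone, with 1.76 and 1.71 against 1.57, 1.63 and 1.55 with saline. Pfkfb3 less Pfkfb4 was 0.190 and 0.746 at 15 min against -0.090, -0.131 and 0.185 with saline, so 15 min replicate 1 barely cleared saline. The other 5 pairs, Hk2 with Hk1, Pfkl with Pfkm, Pfkp with Pfkm, Slc2a4 with Slc2a3 and Mdh1 with Mdh2, overlapped saline at every time. Of the 9 pairs, Eno2 with Eno1 alone was clear of saline at all 3 times. The share of gene pairs over the whole table that separate in this way was not computed.

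**Figure D5:**
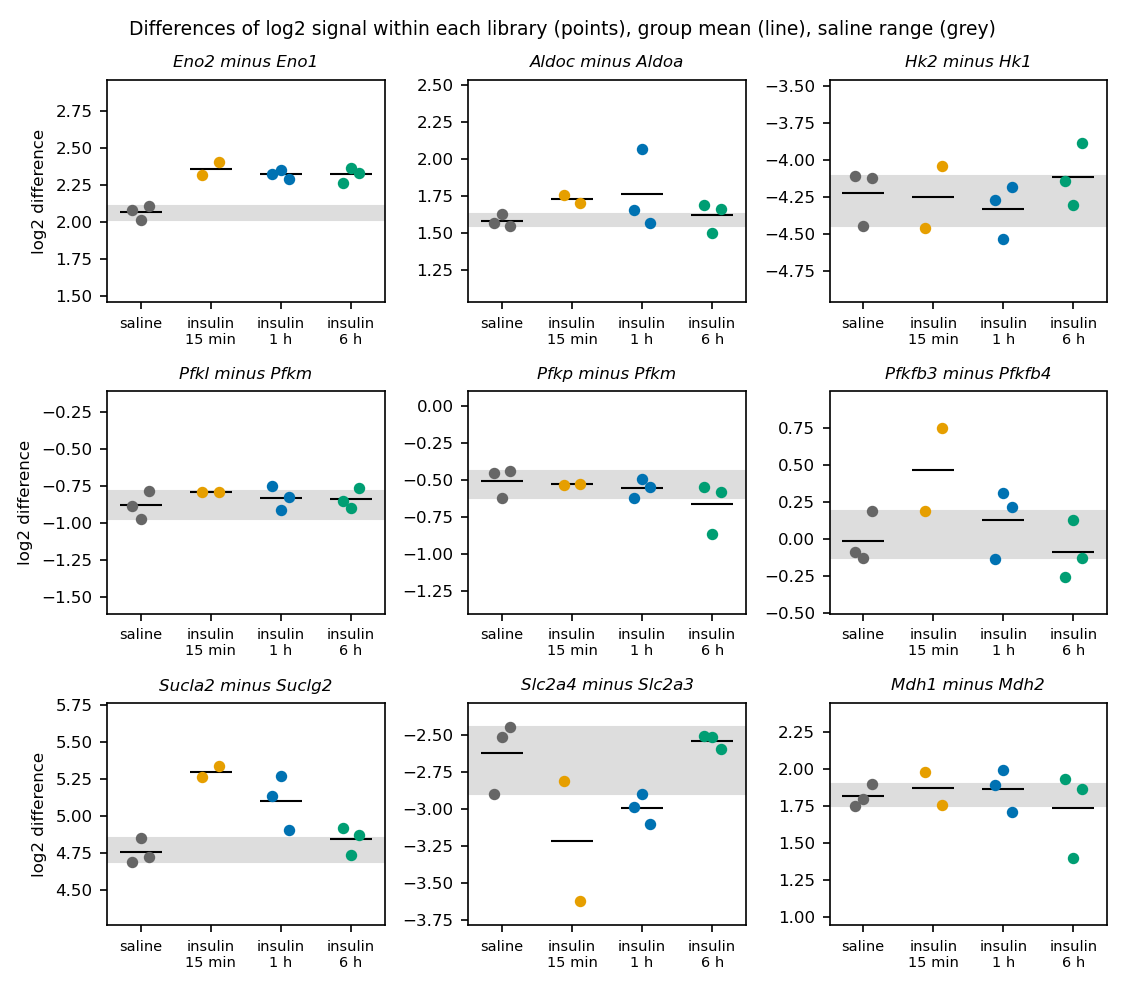
Difference of log2 signal between the genes of 9 pairs within each library (y axis, log2 units), with group means as lines and the saline range in grey; panels have the same height. For Eno2 minus Eno1 the 8 insulin libraries lie between 2.27 and 2.41, above the saline range of 2.02 to 2.11.

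Insulin times were also compared with each other. At 1 h against 15 min 0 of the 37 genes passed, with 0.0% of all rows, and 0 had an unadjusted p under 0.05. At 6 h against 15 min 0 genes passed, with 0.00723% of all rows, and 4 had an unadjusted p under 0.05. The smallest was that of Slc2a4, which was 0.78 higher at 6 h (standard error 0.23, adjusted p = 0.221), followed by Pfkfb4, 0.44 higher (0.14, adjusted p = 0.233). At 6 h against 1 h 0 genes passed, with 0.0108% of all rows (0.00722% as falls and 0.00361% as rises), and 2 had an unadjusted p under 0.05. Eno1 was 0.15 higher at 6 h than at 15 min (adjusted p = 0.302) and 0.12 higher than at 1 h (adjusted p = 0.446). The test did not call these differences, although the libraries do not overlap.

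Other genes of the same pathways were counted from a list of 74 that held further transporters and isozymes, the handling of lactate and pyruvate, and enzymes linked to the cycle. Of these 72 were tested. At 15 min 1 rose and 0 fell, at 1 h 1 rose and 0 fell, and at 6 h 0 rose and 0 fell; over all rows rises were 0.0434%, 0.13% and 0.0%. Over all insulin libraries 1 rose and 0 fell, beside 0.0905% of rows that rose. The gene that rose was Pdk4, a kinase that switches off pyruvate dehydrogenase and so limits the entry of pyruvate into the cycle. Pdk4 had log2 signals of -1.44, -1.49 and -1.16 with saline, -0.17 and -0.02 at 15 min, -0.32, -0.17 and -0.04 at 1 h and -1.28, -1.40 and -0.88 at 6 h. Its early insulin libraries were all far above saline, and the 6 h libraries overlapped saline. The changes were 1.27 at 15 min (standard error 0.17, adjusted p = 0.0201), 1.18 at 1 h (0.15, adjusted p = 0.00867) and 0.18 at 6 h (0.15, adjusted p = 0.768). At 1 h the call held in all 20 other settings, with changes from 0.44 to 1.32. At 15 min it was lost without saline replicate 1 or 2, without either 15 min library and in a fit of the 2 groups alone, with adjusted p up to 0.193.

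Next among these genes came 2 transporters. Slc2a6 was at 0.76 and 0.55 at 15 min and at 0.69, 0.60 and 0.70 at 1 h, against 1.27, 1.29 and 0.99 with saline, with changes of -0.53 and -0.52 (adjusted p = 0.116 and 0.0591). Slc2a1, the glucose transporter of the blood-brain barrier and of astrocytes, was at 1.16 and 1.24 at 15 min and at 1.16, 1.37 and 1.13 at 1 h, against 0.75, 0.50 and 0.45 with saline. All 5 values of Slc2a1 were above saline, with changes of 0.63 and 0.65 (adjusted p = 0.142 and 0.0688). Without 6 h replicate 2 Slc2a1 passed the threshold at 1 h. At 6 h both genes overlapped saline. At 6 h the smallest p-values were those of Pck2, with a change of 0.35 (adjusted p = 0.564), and Eno4, with -0.42 (adjusted p = 0.702). The median change of the 72 genes was -0.12, -0.08 and -0.03 at the 3 times.

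Upstream regions were searched for short motifs in the RefSeq promoter table, which runs from 250 bases before to 50 bases after each start. It held 33 of the 37 genes, without Slc2a3, Slc2a4, Idh3a and Sdhc. The hypoxia factor core ACGTG, on either strand, was present for 15 of the 33 genes (45.5%), against 21.8% of the 27025 genes in the table. GCGTG was present for 20 genes (60.6%), against 35.2%. CACGTG, which contains ACGTG and is the E-box of carbohydrate response elements, was present for 4 genes (12.1%: Pfkm, Pfkfb2, Pfkfb3 and Ogdh), against 8.09%. A gene counts here if any of its annotated starts has the motif. The 33 genes have 51 promoters, and the 27025 genes have 32851. By promoter, ACGTG was in 24 of the 51, against 19.6% of all promoters. GCGTG was in 28, against 32.4%, and CACGTG in 6, against 7.15%. Median GC content was 60.0% for these promoters and 52.7% for all promoters in the table, and its part in the motif shares was not tested. Among the genes singled out above, Idh3g held ACGTG and GCGTG, Sdhb, Suclg1 and Eno1 held GCGTG alone, and Suclg2, Eno2, Cs and Dlst held none of these motifs.

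Position in the genome was described as well. The 37 genes span from 3573 bases (Tpi1) to 245850 bases (Suclg2), and 7 of them lie on chromosome 6, including Suclg1, Suclg2, Eno2, Tpi1 and Gapdh. The share of all genes on that chromosome is not given here. Eno2 (124760053 to 124769673), Tpi1 (124810586 to 124814158) and Gapdh (125161852 to 125166467) are close neighbours. At 1 h Eno2 overlapped saline and Tpi1 and Gapdh lay below it, none of them called. The Tpi1 change of -0.11 was level with the median of all rows. A part of position in these values was not tested. Across the 37 genes Spearman's rho between change and gene span was 0.17 after 15 min, 0.20 after 1 h and 0.20 after 6 h, beside 0.05, -0.06 and -0.14 over all matched rows; genes share libraries and are not independent.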

How the data were processed

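RNA of the hippocampus was measured in 11 libraries. The values are those deposited by the authors: 1 signal per gene symbol and library, read here as log2 values because they run from -13.64 to 16.00; the log base is not stated, and fold changes rest on it. Per the submitters' processing notes, bcl2fastq, Partek 6.7 and the build GRCm38 were used; which aligner, counting tool and annotation were used is not given in the sources used here. Every library has the same minimum, median (-3.20) and maximum, as quantile normalization by the authors gives. Missing values stayed missing. Read counts and depth are unknown, so no counting interval is given.

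Tests used limma 3.58.1 in R 4.3.3: group means over all 11 libraries, empirical Bayes with a mean-variance trend, two-sided, Benjamini-Hochberg over all rows tested at 0.05. The lowest 40% of rows by mean were left out. Differences between groups are of mean log2 signal, and summed marker signals are log2 of summed linear values. The scripts were tested on simulated data. The members, lists and rules were chosen with earlier results of these data known. Values in every library are given for genes past 0.05 in any test, the 3 smallest p-values per comparison with saline and a panel of 19 enzymes and transporters. Of the other pathway genes, those past 0.05 and the 2 smallest p-values in each comparison are named; Slc2a1, ranked next at 15 min and 1 h, and Idh3g, Sucla2, Fh1, Rn18s-rs5 and the retrogene copies were chosen after their values were seen. The result of 1 marker list is not reported here. Coordinates and promoters are from RefSeq on GRCm38.p6. Alternatives were other filters, scalings and variance models, the replicate number as a block, the 2 compared groups alone and each library left out.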

Additional observations from a re-analysis of the deposited data

How the results depend on the processing

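The number of the 37 genes past the threshold was 0 or 1 in nearly all settings. At 1 h it was 1, and 0 under cyclic loess, median centring, no variance trend, robust variance, the replicate block and a fit of the 2 groups alone; leaving out 1 library gave 0 to 2. Over all insulin libraries it was 1, and 0 under the same settings apart from the 2-group fit, which was not run there; leaving out 1 library gave 0 to 1. At 15 min it was 0, and 1 with an offset of 1 on the linear scale (Eno1, adjusted p = 0.0377); leaving out 1 library gave 0 to 1. The F test passed 0, and 0 to 2 with 1 library left out. The high counts came without 6 h replicate 2, when Eno1 passed at 15 min, 1 h and in the F test (adjusted p = 0.0443), and Idh3g at 1 h and in the F test (adjusted p = 0.0459). At 1 h the changes without that library were the same, -0.29 for Eno1 and -0.30 for Idh3g. Their standard errors went from 0.05 to 0.04 and from 0.11 to 0.05. What caused the other differences between settings was not tested. The change of Eno1 was negative in all settings, from -0.34 to -0.15 at 15 min, from -0.31 to -0.15 at 1 h and from -0.19 to -0.14 at 6 h, and no called value of the 37 genes reversed. At 6 h and between insulin times 0 genes passed in any setting.

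Whether replicate numbers pair the libraries is not stated by the labels and was not tested. Same-numbered libraries of different groups correlated at -0.056 to 0.237 in their deviations from group means, 7 of 15 pairs above 0.1. Libraries with different numbers correlated at -0.2495 to 0.2495, and 6 of 11 libraries correlated best with their own number. With the replicate block the count of the 37 genes was 0 at every time, and 38, 159 and 0 of all rows passed at 15 min, 1 h and 6 h, against 66, 243 and 0.

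Calls over all rows depended on the setting. At 15 min they ran from 1 (2 groups alone) to 114 (no variance trend), with 112 under the offset and 37 under cyclic loess, and from 5 to 104 with 1 library left out. At 1 h they ran from 138 (2 groups alone) to 394 (offset), and from 42 to 479 with 1 library left out. Over all insulin they ran from 60 to 325 around 125, and from 27 to 152 with 1 library left out. The F test gave 101, 53 under loess or centring, 40 with the block and 18 to 124 with 1 library left out. Scaling moved the split: falls were 207 of 243 at 1 h, but 107 of 201 after median centring and 121 of 178 after cyclic loess; they were 54 of 66 at 15 min, but 26 of 46 and 23 of 37, and 100 of 125 over all insulin, but 46 of 86 and 62 of 97. Relative to all rows the median change of the 37 genes changed sign at 15 min and 1 h under cyclic loess and under the offset. The offset shrinks the changes of low rows the most, so the sign under it says little about the 37 genes. Groups of 2 or 3 libraries and an unknown depth limit precision.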
